A study of Brachypodium distachyon with 12 samples.

Results

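Gibberellin pathway and GRAS genes of the grass Brachypodium distachyon were followed across roots and shoots at 2 plant ages. The set holds the 104 genes, of 39068 in the deposited table, whose description contains "gibberellin" or "GRAS domain", leaving out descriptions of cytochrome P450, MYB-like DNA-binding, helix-loop-helix and homeobox proteins. By description, 63 are GRAS genes, 22 are gibberellin oxidases, 2 are gibberellin receptors, 1 is the F-box protein GID2, 12 are gibberellin-regulated peptides, and 4 are 3 SAUR36 genes and a kinesin. All 63 genes that the table assigns to the GRAS transcription factor family were members. The names are best matches to proteins of other plants, so they state sequence similarity and not a tested activity.

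Gibberellins are diterpenoid hormones that promote stem and leaf growth in cereals. Oxidases that act on several carbons of the molecule make them: 20-oxidases and then 3-oxidases complete the active hormone, and 2-oxidases inactivate it. In rice the soluble receptor GID1 binds the hormone and then a DELLA protein, a growth repressor of the GRAS family, which the F-box protein GID2 marks for destruction. The wider GRAS family also holds SHORT-ROOT and SCARECROW, which pattern the root layers in Arabidopsis, and regulators of branching, symbiosis and stress, while the gibberellin-regulated (GASA or snakin) peptides are small and rich in cysteine.

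The plants were wild-type line Bd21-3, grown hydroponically in 0.5 × MS medium under 16 h of light, with a pair of seedlings to a vessel. The 12 messenger RNA libraries form 4 groups of 3: whole roots of week 4, whole roots of week 2, shoots of week 4 and those of week 2, with different plants for each replicate. No group carried a mutation or a treatment, and the labels do not say whether the root and the shoot library of a number came from the same plants. Each age was a separate harvest, so the age of the plants and the harvest cannot be told apart. In whole organs, fewer cells of a type and less RNA per cell cannot be told apart either.

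Total counts were 20773281 to 23676944 in week 4 roots, 17261299 to 23116808 in week 2 roots, 20964844 to 24119000 in week 4 shoots and 20044972 to 24186744 in week 2 shoots. Levels below are CPM, read counts set to a common scaled library size, given for replicates 1, 2 and 3 in that order, and differences come from 1 edgeR model over all tested genes. A gene is called where its Benjamini-Hochberg adjusted p is under 0.05. The tissue labels were checked with genes of light-harvesting (chlorophyll a-b binding) proteins and of root cap and Casparian strip membrane proteins. The 27 light-harvesting genes summed to 6411 to 7332 CPM in week 4 roots and 1119 to 2299 CPM in week 2 roots. In shoots the sum was 63229 to 86379 CPM at week 4 and 63545 to 78409 CPM at week 2. Of the 26 tested, edgeR called 22 lower and 2 higher in roots at week 2. For week 4 these numbers were 22 and 1. The set also holds genes named early light-inducible protein. Among these, BdiBd21-3.1G0740200 had 140.9, 51.4 and 38.3 CPM in week 2 roots, against 33.4, 21.5 and 26.4 CPM in week 2 shoots. The 14 root genes summed to 715 to 892 CPM in roots and to 4.18 to 6.53 CPM in shoots. Replicate 1 of the week 4 shoots stood apart from replicates 2 and 3 in many members, and its values are given beside many of the results that it touches.

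Of the 104 members, 78 had enough counts to be tested, and 26 did not. The 26 had at most 74 counts over the 12 libraries, and 8 of them had none. The members were spread unevenly over the chromosomes. Chromosome 4 carried 33 members, or 31.7%, against 17.3% of all genes in the table, and 20 of the 33 were GRAS genes in 1 run of neighbours. Chromosome 3 carried 13 members, or 12.5%, against 21.9% of all genes.

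Many tested members differed between roots and shoots at each week, in both directions. At week 4, 46 of the 78 were called, 29 higher and 17 lower in roots, where 60.9% of the 26463 tested genes were called (32.4% higher, 28.5% lower). At week 2, 42 of the 78 were called, 26 higher and 16 lower in roots, where 56.1% of tested genes were called (28.4% higher, 27.7% lower). These shares lie near those of the whole table. With age, 33.9% of tested genes were called in shoots and 18.8% in roots. The median root minus shoot log2 fold change of the members was 0.29 at week 4, against 0.04 over all tested genes, and 0.26 at week 2, against 0.01 over all. Week 4 and week 2 libraries are separate samples, and 22 members (28.2%) were higher and 11 (14.1%) lower in roots at both weeks, against 23.9% and 22.3% of all tested genes. No member was lower in roots at week 2 and higher at week 4, and 1 was higher in roots at week 2 and lower at week 4.

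**Figure D1:**
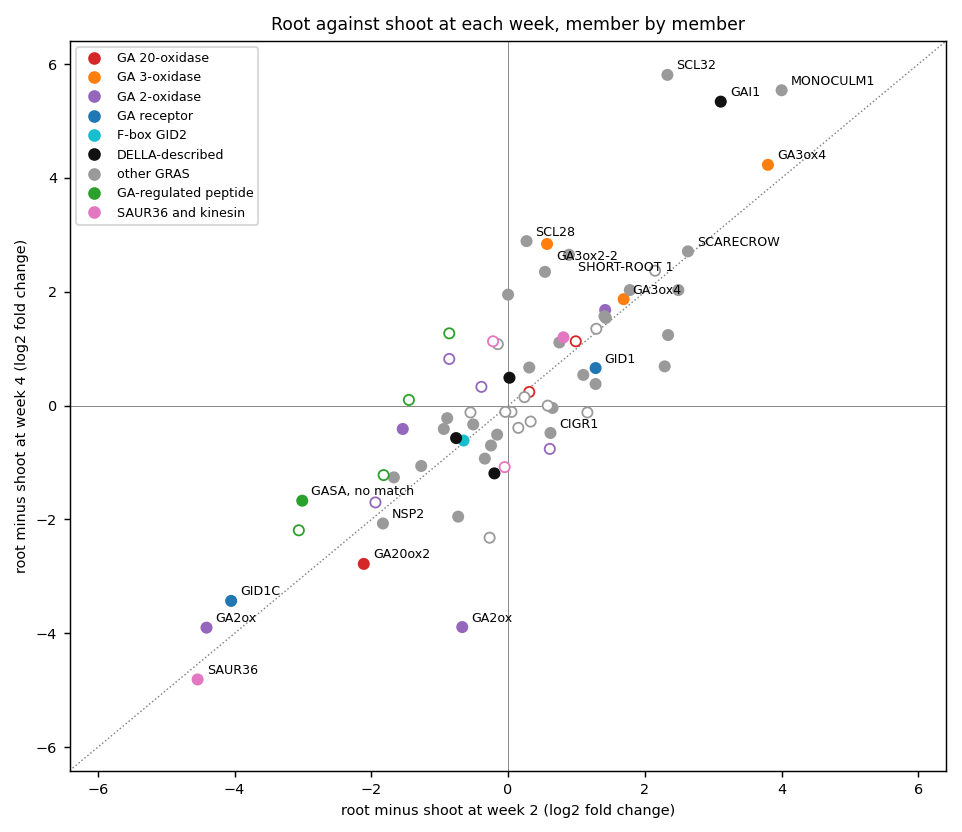
Root minus shoot log2 fold change at week 2 (x axis) and at week 4 (y axis) for the 71 members with a fitted value at both weeks, coloured by role. Filled points were called at 1 or both weeks, open points at neither, and 7 members with 3 or fewer counts in a group are not drawn. Most points lie near the dotted line of equal difference, with the GA 3-oxidases at the upper right and GID1C at the lower left.

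The tested 3-oxidases, which make the active hormone, had more RNA in roots. Summed over the 5 genes, their level was 99.2, 115 and 107 CPM in week 4 roots, against 15.4, 12.4 and 14.1 CPM in week 4 shoots. Of 5 in the table, 3 were tested, and these 3 were called higher in roots at week 4 and 2 of them at week 2. Gene BdiBd21-3.3G0472200 (gibberellin 3-beta-dioxygenase 4, chromosome 3, 38074640 to 38077032) had 61.2, 64.5 and 61.6 CPM in week 4 roots, 24.8, 55.3 and 51.8 CPM in week 2 roots, 3.21, 2.16 and 4.55 CPM in week 4 shoots and 3.27, 2.69 and 3.50 CPM in week 2 shoots. Every root library lay above every shoot library, and the lowest root value was replicate 1 of week 2. The root minus shoot log2 fold change was 4.23 (SE 0.33, edgeR adjusted p = 9.03e-07) at week 4 and 3.80 (SE 0.33 and adjusted p = 1.90e-06) at week 2. Its neighbour BdiBd21-3.3G0472100 (chromosome 3, 38067200 to 38069554) carries the same name and had 28.03, 37.2 and 33.3 CPM in week 4 roots, 21.6, 33.2 and 30.4 CPM in week 2 roots, 10.1, 7.80 and 9.11 CPM in week 4 shoots and 8.70, 8.88 and 8.78 CPM in week 2 shoots. Here too the tissues did not overlap, with a log2 fold change of 1.87 (SE 0.17, edgeR adjusted p = 2.17e-06) at week 4 and 1.69 (SE 0.17 and adjusted p = 4.97e-06) at week 2. Per kb of gene length, the neighbours reached 28.5 and 15.4 CPM in week 4 roots, and 1.51 and 4.22 CPM in week 4 shoots. The sources used here do not say how reads matching both neighbours were counted, so the split between them is uncertain.

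The other tested 3-oxidase, BdiBd21-3.2G0063700 (gibberellin 3-beta-dioxygenase 2-2, chromosome 2, 3453846 to 3456804), differed between tissues by a call at week 4. It had 9.95, 13.6 and 11.9 CPM in week 4 roots, 6.25, 7.09 and 8.72 CPM in week 2 roots, 2.00, 2.45 and 0.477 CPM in week 4 shoots and 5.38, 3.67 and 5.82 CPM in week 2 shoots. Week 4 shoots were lowest, below week 2 shoots in every library, and roots were above shoots at both weeks without overlap. The root minus shoot log2 fold change was 2.84 (SE 0.42, edgeR adjusted p = 9.93e-05) at week 4 and 0.57 (SE 0.38 and adjusted p = 0.228) at week 2. With age it fell in shoots by 1.59 on the log2 scale (SE 0.41, edgeR adjusted p = 0.0125), while the change in roots was 0.68 (SE 0.37 and adjusted p = 0.221). The difference between those changes was 2.28 (SE 0.56, edgeR adjusted p = 0.0293). That difference was not called in 6 of 12 fits that left out a library, namely replicate 1 or 2 of week 2 roots, replicate 2 or 3 of week 4 roots, or replicate 1 or 3 of week 2 shoots (adjusted p 0.0519 to 0.0716). The remaining 3-oxidases, BdiBd21-3.4G0329100 and BdiBd21-3.4G0329500, had 6 and 0 counts in all 12 libraries.

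The 20-oxidases, which act before the 3-oxidases, had a single called member, and it was a shoot gene. Of 5 in the table, 3 were tested, and 1 was called, lower in roots at both weeks. This was BdiBd21-3.2G0728700 (gibberellin 20 oxidase 2, chromosome 2, 54752228 to 54756897), with 0.581, 0.451 and 0.295 CPM in week 4 roots, 0.962, 0.882 and 0.507 CPM in week 2 roots, 2.37, 3.81 and 3.07 CPM in week 4 shoots and 3.57, 4.04 and 2.64 CPM in week 2 shoots. All root libraries lay below all shoot libraries, and the log2 fold change was -2.78 (SE 0.36, edgeR adjusted p = 3.79e-05) at week 4 and -2.11 (SE 0.34 and adjusted p = 2.46e-04) at week 2. The most counted 20-oxidase, BdiBd21-3.1G0010900 (gibberellin 20 oxidase 1-B, chromosome 1, 659773 to 661704), had 6.05, 4.58 and 4.13 CPM in week 4 roots, 5.42, 5.10 and 4.87 CPM in week 2 roots, 4.88, 4.27 and 3.34 CPM in week 4 shoots and 4.72, 3.35 and 4.37 CPM in week 2 shoots. Its week 4 tissues overlapped, and at week 2 every root value lay above every shoot value but the difference was not called (log2 fold change 0.31, SE 0.22, edgeR adjusted p = 0.255). Gene BdiBd21-3.2G0328800 (gibberellin 20 oxidase 2) had a log2 fold change of 1.13 (SE 0.74, edgeR adjusted p = 0.208) at week 4 and 0.99 (SE 0.67 and adjusted p = 0.235) at week 2. The neighbours BdiBd21-3.1G0749400 and BdiBd21-3.1G0749500, also named 20 oxidase 1-B, had no count. No 20-oxidase was called with age in either tissue by edgeR. At an unadjusted p under 0.05 there was 1 in roots and 0 in shoots, and DESeq2 and limma-voom called 0.

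The 2-oxidases, which inactivate gibberellins, were divided between the tissues. Of 12 in the table, 9 were tested, and 2 were called higher and 2 lower in roots at each week. That share, 44.4%, was below the 60.9% of all tested genes at week 4 and the 56.1% at week 2. All tested genes, too, were called in both directions (32.4% higher and 28.5% lower in roots at week 4, 28.4% and 27.7% at week 2). The clearest root gene was BdiBd21-3.1G0804700 (gibberellin 2-beta-dioxygenase 8, chromosome 1, 59206012 to 59211138), with 17.3, 18.5 and 11.7 CPM in week 4 roots, 35.3, 22.6 and 13.1 CPM in week 2 roots, 0, 0 and 0 CPM in week 4 shoots and 0.402, 0.0465 and 0 CPM in week 2 shoots. It had no count in week 4 shoots, so its level in week 4 roots was at least 308-fold higher, taking a floor of 3 counts over the group (adjusted p = 2.74e-05, edgeR). At week 2 the log2 fold change was 7.25 (SE 0.72, edgeR adjusted p = 3.17e-05). Another gene of the same name, BdiBd21-3.4G0019200 (chromosome 4, 1106159 to 1107862), was higher in roots by 1.68 (SE 0.30, edgeR adjusted p = 4.09e-04) at week 4 and 1.42 (SE 0.29 and adjusted p = 0.00144) at week 2 on the log2 scale. Against these, BdiBd21-3.2G0406700 (gibberellin 2-beta-dioxygenase, chromosome 2, 32067253 to 32072201) was a shoot gene, with 0.0829, 0 and 0.337 CPM in week 4 roots, 0.350, 0.115 and 0.152 CPM in week 2 roots, 1.21, 2.62 and 2.54 CPM in week 4 shoots and 5.08, 4.51 and 3.77 CPM in week 2 shoots. No root library reached the lowest shoot library, and the log2 fold change was -3.90 (SE 0.70, edgeR adjusted p = 4.67e-04) at week 4 and -4.41 (SE 0.67 and adjusted p = 1.40e-04) at week 2.

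A pair of 2-oxidases fell in shoots with age. Gene BdiBd21-3.2G0643500 (chromosome 2, 49694344 to 49697189) had 3.16, 2.73 and 1.11 CPM in week 4 shoots, against 13.5, 6.97 and 12.8 CPM in week 2 shoots, and 2.32, 1.84 and 1.09 CPM in week 4 roots, against 6.16, 2.76 and 2.48 CPM in week 2 roots. The shoot groups did not overlap (log2 fold change -2.24, SE 0.47, edgeR adjusted p = 0.00428), and the root change of -1.11 was not called (SE 0.47 and adjusted p = 0.121). At week 2 it was lower in roots (log2 fold change -1.54, SE 0.45, edgeR adjusted p = 0.012), but not called without replicate 2 or without replicate 3 of week 2 roots (adjusted p 0.05 and 0.0515). Gene BdiBd21-3.5G0208500 (gibberellin 2-beta-dioxygenase 8, chromosome 5, 19692351 to 19696033) had 0.418, 2.56 and 1.64 CPM in week 4 shoots, against 14.6, 9.39 and 5.28 CPM in week 2 shoots. Its shoot change of -2.68 (SE 0.81, edgeR adjusted p = 0.0271) was not called without replicate 1 or 2 of week 2 shoots or replicate 1 or 3 of week 4 shoots (adjusted p 0.0567 to 0.0791).

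In week 2, replicate 1 was the highest of its group in both tissues for several 2-oxidases, including BdiBd21-3.2G0643500 and BdiBd21-3.1G0804700 above. Summed over the 12 genes, levels were 72.1, 36.9 and 26.0 CPM in week 2 roots and 61.4, 26.95 and 28.9 CPM in week 2 shoots. The 2-oxidase BdiBd21-3.2G0262100 (chromosome 2, 17403234 to 17407320) had 0.539, 0.751 and 0.926 CPM in week 4 roots, 13.3, 1.07 and 0.608 CPM in week 2 roots, 15.98, 8.65 and 8.31 CPM in week 4 shoots and 20.4, 2.00 and 1.46 CPM in week 2 shoots. Replicate 1 was the highest of its group in week 2 roots and in week 2 shoots. It was called lower in roots at week 4 (log2 fold change -3.89, SE 1.35, edgeR adjusted p = 0.0298), where the groups did not overlap, but not when any of the 3 week 4 root libraries or replicate 1 of the week 4 shoots was left out (adjusted p 0.0733 to 0.091). For BdiBd21-3.5G0208500 the week 2 roots had 5.33, 0.997 and 1.32 CPM, with replicate 1 again highest. In week 4 roots BdiBd21-3.2G0166200 (gibberellin 2-beta-dioxygenase 6, chromosome 2, 10657490 to 10662957) was the 2-oxidase that rose with age, with 3.11, 2.22 and 1.18 CPM against 0.393, 0.613 and 0.811 CPM in week 2 roots (log2 fold change 1.84, SE 0.51, edgeR adjusted p = 0.0286). The root groups did not overlap, but the call was lost without replicate 1 or 2 of either root group (adjusted p 0.076 to 0.12). The tested genes BdiBd21-3.2G0086700 and BdiBd21-3.2G0434100 were called in no contrast, and BdiBd21-3.2G0219300, BdiBd21-3.2G0219600 and BdiBd21-3.3G0655300 had too few counts, 1, 41 and 74 in all.

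**Figure D2:**
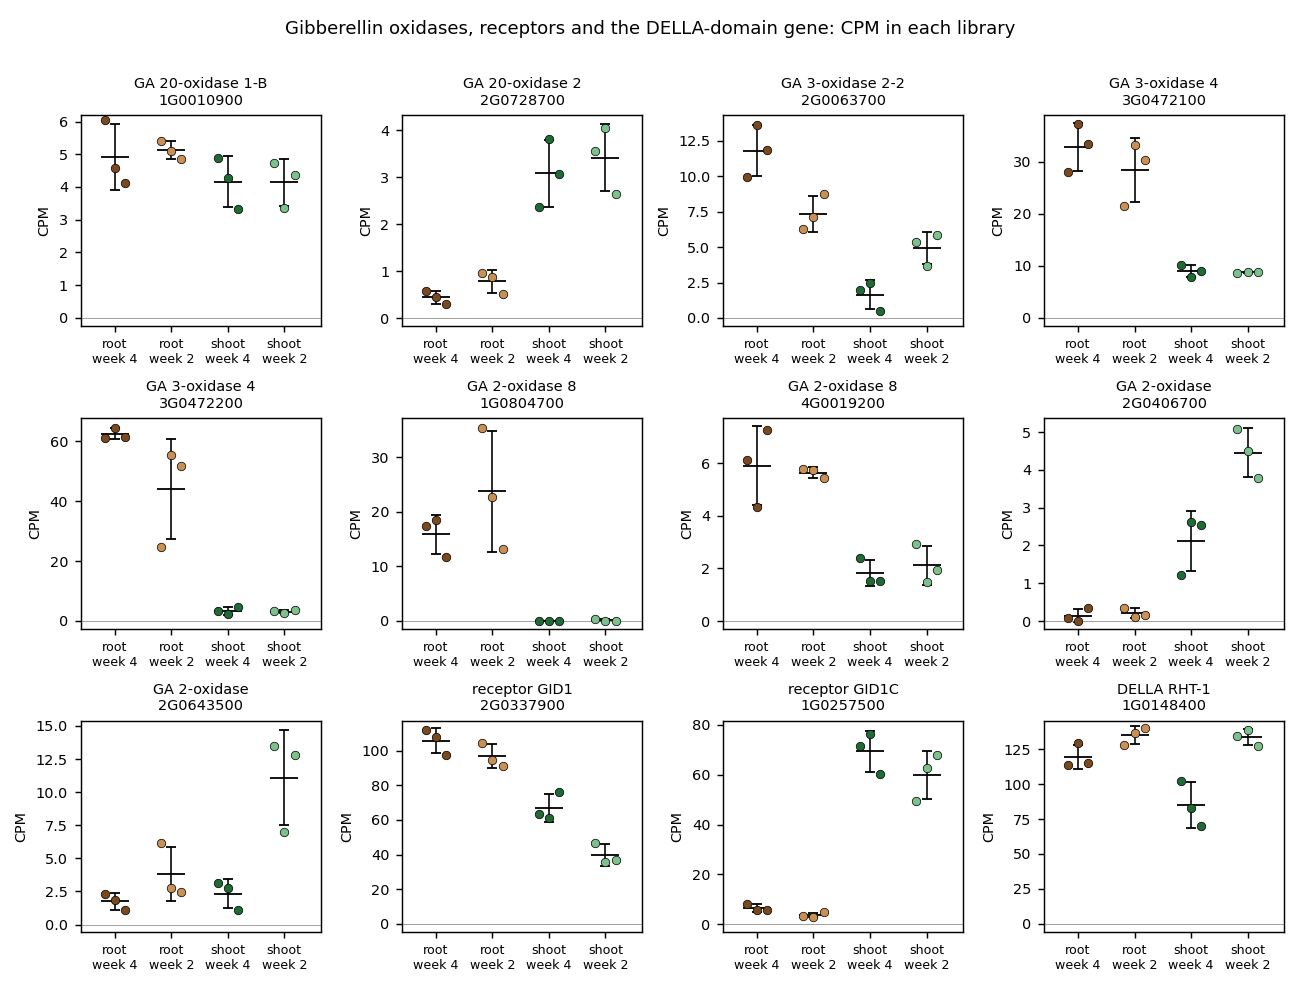
CPM (y axis) of 12 gibberellin oxidase, receptor and DELLA genes in each of the 12 libraries, by group (x axis). Points are libraries, in replicate order from left to right, and bars are the mean with 1 SD of 3 libraries. Roots lie above shoots for the gibberellin 3-beta-dioxygenase 4 genes and receptor GID1, and far below them for receptor GID1C.

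The receptor genes were opposite in their tissue. Gene BdiBd21-3.1G0257500 (gibberellin receptor GID1C, named after an Arabidopsis receptor, chromosome 1, 15907590 to 15909161) had 8.09, 5.67 and 5.60 CPM in week 4 roots, 3.19, 3.03 and 4.66 CPM in week 2 roots, 71.5, 76.5 and 60.5 CPM in week 4 shoots and 49.4, 62.7 and 67.9 CPM in week 2 shoots. Roots and shoots were far apart at both weeks, and the log2 fold change was -3.43 (SE 0.21, edgeR adjusted p = 8.64e-08) at week 4 and -4.05 (SE 0.22 and adjusted p = 2.27e-08) at week 2. Gene BdiBd21-3.2G0337900 (gibberellin receptor GID1, the rice name, chromosome 2, 23604701 to 23607688) had 112, 108 and 97.6 CPM in week 4 roots, 105, 94.5 and 91.4 CPM in week 2 roots, 63.3, 61.01 and 75.99 CPM in week 4 shoots and 46.8, 35.6 and 36.9 CPM in week 2 shoots. All root libraries lay above all shoot libraries, by a log2 fold change of 0.66 (SE 0.12, edgeR adjusted p = 5.83e-04) at week 4 and 1.28 (SE 0.12 and adjusted p = 3.48e-06) at week 2. Per kb, GID1 had 44.5 CPM and GID1C 4.11 CPM in week 4 roots, against 28.1 and 44.2 CPM in week 4 shoots. The order of these receptors by level per length was thus turned between the tissues.

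With age, each receptor was called higher in the tissue where its level was lower, and was not called in the other tissue. GID1 rose in shoots (log2 fold change 0.75, SE 0.12, edgeR adjusted p = 0.00124), where the weeks did not overlap, and its change in roots was 0.13 (SE 0.12 and adjusted p = 0.5). The difference between the root and the shoot change was -0.62 (SE 0.17, edgeR adjusted p = 0.0484), and it was called in 2 of the 12 fits that left out a library. Those fits left out replicate 1 of the week 2 shoots or replicate 1 of the week 4 shoots, and in the other 10 the adjusted p was 0.0634 to 0.131. GID1C rose in roots (log2 fold change 0.84, SE 0.21, edgeR adjusted p = 0.0167), without overlap, and its change in shoots was 0.21 (SE 0.19 and adjusted p = 0.403). The difference between its root and shoot changes, 0.62, was not called. The root call ended without replicate 1 or 2 of week 2 roots or replicate 1 of week 4 roots (adjusted p 0.0683 to 0.0748), and limma-voom did not make it. GID1C is a gene of high shoot level, and 17 of the 26 tested light-harvesting genes also rose with age in roots, with none lower. Their sum was 6411 to 7332 CPM in week 4 roots, against 1119 to 2299 CPM in week 2 roots, and the part of this in the GID1C result was not tested.

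GID2, which in rice joins DELLA proteins to the machinery that destroys them, was lower in roots. Gene BdiBd21-3.3G0623000 (chromosome 3, 48564117 to 48566006), the only GID2 in the table, had 16.8, 15.6 and 16.6 CPM in week 4 roots, 13.2, 15.4 and 12.6 CPM in week 2 roots, 22.2, 25.3 and 26.9 CPM in week 4 shoots and 18.3, 23.2 and 23.7 CPM in week 2 shoots. Roots lay below shoots in every library of the same week, with a log2 fold change of -0.60 (SE 0.13, edgeR adjusted p = 0.00164) at week 4 and -0.66 (SE 0.13 and adjusted p = 0.00102) at week 2. The age changes of 0.25 in roots (SE 0.13, edgeR adjusted p = 0.207) and 0.19 in shoots (SE 0.13 and adjusted p = 0.281) were not called.

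Of 7 genes with a DELLA name, 1 carried the DELLA N-terminal domain in its description, the part that binds the receptor in rice. This was BdiBd21-3.1G0148400 (RHT-1, the name of the wheat dwarfing gene, chromosome 1, 8335318 to 8338011). It had 114, 129 and 115 CPM in week 4 roots, 128, 137 and 140.3 CPM in week 2 roots, 102, 83.1 and 69.8 CPM in week 4 shoots and 135, 139 and 127 CPM in week 2 shoots. Week 4 shoots lay below the other 3 groups in every library. It fell in shoots with age, with a log2 fold change of -0.65 (SE 0.12, edgeR adjusted p = 0.00246), and the root change was -0.18 (SE 0.12 and adjusted p = 0.328). The difference between these changes was not called (log2 fold change 0.47, SE 0.17, edgeR adjusted p = 0.118), and was 0.62 with an adjusted p of 0.0166 without replicate 1 of the week 4 shoots. Roots and shoots were apart at week 4 (log2 fold change 0.49, SE 0.12, edgeR adjusted p = 0.0047) and overlapped at week 2 (0.02, SE 0.12 and adjusted p = 0.929).

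The other DELLA-named genes lack that domain in the table and differed from RHT-1 and from each other. Gene BdiBd21-3.4G0264500 (GAI1, chromosome 4, 20606997 to 20611726) was a root gene, with 1.87, 4.13 and 5.26 CPM in week 4 roots, 4.94, 4.25 and 2.94 CPM in week 2 roots, 0.0464, 0.171 and 0.0530 CPM in week 4 shoots and 0.804, 0.372 and 0.215 CPM in week 2 shoots. The tissues did not overlap, and its log2 fold change was 5.34 (SE 0.66, edgeR adjusted p = 2.40e-05) at week 4 and 3.11 (SE 0.52 and adjusted p = 2.95e-04) at week 2. Its lower level in week 4 than in week 2 shoots was called (log2 fold change -2.35, SE 0.77, edgeR adjusted p = 0.0349), but not without replicate 1 or 2 of week 2 shoots or replicate 1 or 3 of week 4 shoots (adjusted p 0.0524 to 0.137), nor by limma-voom (adjusted p = 0.182). Gene BdiBd21-3.4G0370600 (GAIP, chromosome 4, 31712629 to 31716749) was lower in roots, by a log2 fold change of -0.57 (SE 0.18, edgeR adjusted p = 0.0172) at week 4, not called without replicate 2 of week 4 roots (adjusted p = 0.075), and -0.76 (SE 0.18 and adjusted p = 0.00394) at week 2.

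In the edgeR fit of all libraries, the only member called lower in roots with age was BdiBd21-3.2G0574800 (SLR1, the name of the rice DELLA, chromosome 2, 44954909 to 44956679). It had 1.99, 2.14 and 2.48 CPM in week 4 roots, 8.13, 4.60 and 5.12 CPM in week 2 roots, 6.41, 3.13 and 5.56 CPM in week 4 shoots and 9.60, 5.16 and 5.82 CPM in week 2 shoots. Week 4 roots lay below every other library, with a log2 fold change against week 2 roots of -1.43 (SE 0.33, edgeR adjusted p = 0.0131). The call was lost without replicate 1 of week 2 roots or replicate 1 or 2 of week 4 roots (adjusted p 0.0511 to 0.0568). At week 4 it was lower in roots than in shoots (-1.19, SE 0.34, edgeR adjusted p = 0.00883), and at week 2 the tissues overlapped (-0.20, SE 0.32 and adjusted p = 0.615). The last 3 DELLA-named genes, BdiBd21-3.1G0430600, BdiBd21-3.1G0632300 and BdiBd21-3.2G0741500, had 1 count each in all 12 libraries. Per kb, RHT-1 had 44.3 CPM in week 4 roots and 31.6 CPM in week 4 shoots, and GAIP had 2.83 and 4.19 CPM.

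Other pathway genes, taken by keyword and not members, gave the steps before and beside these. Of 27 in the table, 18 were tested, and these include GAMYB, SPINDLY and PIF1 genes, which are not enzymes of synthesis. At week 4, 5 were called higher and 8 lower in roots, at week 2, 2 higher and 9 lower. The shares called were 72.2% and 61.1%, against 60.9% and 56.1% of all tested genes. With age, 3 were called higher and 0 lower in roots, and 3 higher and 3 lower in shoots. These shares, 16.7% and 33.3%, lie near the 18.8% and 33.9% of all tested genes. The early enzymes described here were lower in roots where they were called. Ent-kaurenoic acid oxidase 1 (BdiBd21-3.1G0689600), which makes the precursor that the 20-oxidases use, had 5.27, 4.51 and 5.94 CPM in week 4 roots, 8.74, 4.25 and 5.78 CPM in week 2 roots, 9.71, 11.7 and 10.1 CPM in week 4 shoots and 15.3, 14.2 and 15.8 CPM in week 2 shoots, a log2 fold change of -1.01 (SE 0.23, edgeR adjusted p = 0.00235) at week 4 and -1.27 (SE 0.23 and adjusted p = 4.92e-04) at week 2. Ent-kaurene oxidase 2 (BdiBd21-3.1G0508300), which acts before it, had a log2 fold change of -0.56 (SE 0.10, edgeR adjusted p = 5.64e-04) at week 4 and -0.53 (SE 0.10 and adjusted p = 9.36e-04) at week 2. Of the genes for ent-copalyl diphosphate synthase 1, which opens the pathway, BdiBd21-3.2G0770100 was not called in any contrast, with 14.6, 13.7 and 12.6 CPM in week 4 roots, against 10.4, 10.4 and 12.2 CPM in week 4 shoots. The other, BdiBd21-3.2G0420600, had 1 count in week 4 roots, against 5.43, 5.29 and 4.92 CPM in week 4 shoots.

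The pair of genes named for cytochrome P450 714B, which in rice hydroxylate gibberellins, stood outside the set by its rule, and the age changes of both differed between roots and shoots. Gene BdiBd21-3.1G0856200 (714B2) had 24.96, 12.96 and 12.7 CPM in week 4 roots, 3.58, 4.83 and 6.84 CPM in week 2 roots, 2.79, 2.79 and 2.01 CPM in week 4 shoots and 6.88, 4.37 and 4.15 CPM in week 2 shoots. It rose in roots (log2 fold change 1.73, SE 0.33, edgeR adjusted p = 0.00482), with no overlap, and its shoot change was -1.02 (SE 0.34 and adjusted p = 0.0391). The difference of 2.75 was called (SE 0.47, edgeR adjusted p = 0.00624), while the shoot call alone was lost in 6 of 12 fits without a library, those without replicate 2 of week 2 roots, replicate 1 or 2 of week 2 shoots or any week 4 shoot library (adjusted p up to 0.138). Gene BdiBd21-3.1G0229500 (714B1) had 5.89, 6.50 and 7.12 CPM in week 4 roots, 5.77, 4.10 and 4.61 CPM in week 2 roots, 0.325, 0.342 and 0 CPM in week 4 shoots and 1.61, 2.04 and 1.72 CPM in week 2 shoots. It fell in shoots (-2.97, SE 0.51, edgeR adjusted p = 0.00152) and was not called in roots (0.43, SE 0.36 and adjusted p = 0.435), and the difference of 3.40 was called (SE 0.63 and adjusted p = 0.00891).

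The 63 GRAS genes made up the largest role, and 49 were tested. At week 4, 21 were called higher and 10 lower in roots, and at week 2, 19 higher and 8 lower. The shares called, 63.3% at week 4 and 55.1% at week 2, lie near the 60.9% and 56.1% of all tested genes. Their median root minus shoot log2 fold change was 0.49 at week 4, against 0.04 over all tested genes, and 0.54 at week 2, against 0.01 over all. Summed over the 63 genes, levels were 1129, 1148 and 1162 CPM in week 4 roots, 1100.3, 1032 and 1086 CPM in week 2 roots, 1318, 1355 and 1322 CPM in week 4 shoots and 1043, 951 and 907 CPM in week 2 shoots. The sum was highest in week 4 shoots, in every library. That order rests on a single gene, BdiBd21-3.1G0304500, with 367, 380.2 and 357 CPM in week 4 shoots, against 78.7, 83.9 and 123 CPM in week 4 roots. Its gap between the week 4 tissues was wider than that of the sum.

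The GRAS genes named after layer-patterning genes of the Arabidopsis root were SHORT-ROOT 1 and the SCARECROW genes. SHORT-ROOT 1 (BdiBd21-3.1G0300400, chromosome 1, 18628475 to 18631258), a transcription factor that moves between cells in Arabidopsis, had 18.04, 17.6 and 20.3 CPM in week 4 roots, 28.7, 28.9 and 29.96 CPM in week 2 roots, 4.51, 2.56 and 1.80 CPM in week 4 shoots and 17.7, 15.9 and 13.7 CPM in week 2 shoots. Roots lay above shoots at each week and week 4 shoots were lowest, with a root minus shoot log2 fold change of 2.65 (SE 0.25, edgeR adjusted p = 3.04e-06) at week 4 and 0.89 (SE 0.23 and adjusted p = 0.00588) at week 2. In shoots the age change was -2.40 (SE 0.25, edgeR adjusted p = 1.84e-04), in roots -0.64 (SE 0.23 and adjusted p = 0.0706), and the difference of 1.76 was called (SE 0.34 and adjusted p = 0.0102). Without replicate 1 of the week 4 shoots the root change was -0.69 and was called (adjusted p = 0.0064, edgeR).

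The 5 genes named SCARECROW, after the partner of SHORT-ROOT, did not share a tissue. Gene BdiBd21-3.5G0127300 (chromosome 5, 13796645 to 13798614) was a root gene, with 12.4, 10.3 and 15.5 CPM in week 4 roots, 17.8, 10.8 and 12.3 CPM in week 2 roots, 2.42, 1.195 and 2.17 CPM in week 4 shoots and 2.71, 2.74 and 1.13 CPM in week 2 shoots. The tissues did not overlap, and the log2 fold change was 2.71 (SE 0.36, edgeR adjusted p = 4.14e-05) at week 4 and 2.63 (SE 0.35 and adjusted p = 5.39e-05) at week 2. In contrast BdiBd21-3.1G0317900 (chromosome 1, 19841546 to 19844001) was lower in roots (-1.06, SE 0.18, edgeR adjusted p = 2.93e-04, at week 4 and -1.27, SE 0.18 and adjusted p = 8.93e-05, at week 2). Gene BdiBd21-3.4G0611400 (chromosome 4, 47814745 to 47818810) had 23.97, 22.02 and 22.1 CPM in week 4 roots, 23.8, 30.5 and 26.1 CPM in week 2 roots, 22.6, 29.1 and 27.7 CPM in week 4 shoots and 51.1, 52.97 and 44.5 CPM in week 2 shoots. Only the week 2 shoots stood apart, above every other library. It was lower in roots at week 2 (-0.89, SE 0.13, edgeR adjusted p = 8.04e-05) and lower in week 4 than in week 2 shoots (-0.90, SE 0.13 and adjusted p = 5.45e-04). The difference between its root and shoot age changes was 0.66 (SE 0.18, edgeR adjusted p = 0.0402) and was called in 3 of the 12 fits that left out a library, those without replicate 2 of week 2 roots, replicate 3 of week 2 shoots or replicate 2 of week 4 shoots. In the other 9 the adjusted p was 0.0563 to 0.109, and with RLE and upper-quartile scaling it was 0.0537 and 0.0552.

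The SCARECROW 2 gene BdiBd21-3.2G0288200 (chromosome 2, 19351476 to 19353217) had 1.45, 0.714 and 1.09 CPM in week 4 roots and no count in week 4 shoots, so its root level was at least 20.8-fold higher there (adjusted p = 0.00457, edgeR). At week 2 it had 0, 0.882 and 0.507 CPM in roots and 0, 0.0929 and 0 CPM in shoots, where 2 counts were found. Gene BdiBd21-3.2G0181000, a shorter SCARECROW-named model, had no count.

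GRAS genes named after branching and meristem regulators differed in how far roots exceeded shoots. A pair was named MONOCULM 1, after the rice regulator of tillering. Gene BdiBd21-3.3G0094400 (chromosome 3, 5467549 to 5470904) had 17.8, 14.5 and 18.8 CPM in week 4 roots, 11.2, 12.3 and 14.4 CPM in week 2 roots, 0.465, 0.342 and 0.265 CPM in week 4 shoots and 0.251, 0.929 and 1.19 CPM in week 2 shoots. All root values lay above all shoot values, by a log2 fold change of 5.54 (SE 0.40, edgeR adjusted p = 3.41e-07) at week 4 and 4.00 (SE 0.36 and adjusted p = 2.00e-06) at week 2. Its namesake BdiBd21-3.1G0489700 had a mean of 0.864 ± 0.229 CPM in week 4 roots (SD, n = 3), against 2 counts in week 4 shoots, which is a ratio of 25.3 (95% counting interval 6.73 to 213; adjusted p = 5.59e-04, edgeR). The 4 genes named SCL6 or SCL22, after Arabidopsis meristem regulators that a microRNA targets, had RNA in both tissues and were called higher in roots at week 2, by log2 fold changes of 0.31 to 1.28, and 3 of the 4 at week 4. Without single libraries, the week 2 call of BdiBd21-3.3G0675300 was lost in 5 of 12 fits, those without replicate 1 or 2 of week 2 roots, replicate 1 or 3 of week 2 shoots or replicate 2 of week 4 shoots (adjusted p 0.0602 to 0.134). That of BdiBd21-3.1G0694800 was lost in 9 of 12, all but those without replicate 1 of week 2 roots, replicate 2 of week 4 roots or replicate 3 of week 4 shoots (adjusted p 0.0527 to 0.203). The largest week 2 difference among them was that of BdiBd21-3.1G1043200 (chromosome 1, 74912868 to 74916159), with 35.2, 26.7 and 31.6 CPM in week 4 roots, 45.7, 40.9 and 38.9 CPM in week 2 roots, 22.8, 27.5 and 21.4 CPM in week 4 shoots and 17.2, 19.5 and 14.98 CPM in week 2 shoots. Its log2 fold change was 1.28 (SE 0.14, edgeR adjusted p = 1.13e-05) at week 2, and 0.38 (SE 0.14 and adjusted p = 0.0325) at week 4, where the tissues overlapped and 7 fits without a library lost the call (adjusted p up to 0.19). Those were the fits without replicate 1 or 3 of week 4 roots, replicate 1 or 3 of week 4 shoots, or any week 2 shoot library.

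For BdiBd21-3.1G1043200 the age changes had opposite signs, -0.42 in roots (SE 0.14, edgeR adjusted p = 0.0544) and 0.47 in shoots (SE 0.14 and adjusted p = 0.0243). The difference was -0.89 (SE 0.20, edgeR adjusted p = 0.0196), not called without replicate 1 of week 2 shoots or replicate 2 of week 4 shoots (adjusted p 0.0504 and 0.0528). The shoot call was lost without replicate 1 or 3 of week 2 shoots or replicate 1 or 2 of week 4 shoots (adjusted p 0.052 to 0.17). The SCL6 gene BdiBd21-3.3G0675300 (chromosome 3, 52016358 to 52019523) fell in shoots (-0.69, SE 0.11, edgeR adjusted p = 0.00106), where its namesake rose. SCL8 (BdiBd21-3.5G0251000, chromosome 5, 22557159 to 22559729) was higher in roots by 1.54 (SE 0.18, edgeR adjusted p = 1.37e-05) at week 4 and 1.43 (SE 0.18 and adjusted p = 2.87e-05) at week 2 on the log2 scale.

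The nodulation-signalling names, taken from legume regulators of symbiosis, belonged to 4 genes. Gene BdiBd21-3.4G0351600 (NSP2, chromosome 4, 30211380 to 30212786) was lower in roots (-2.07, SE 0.39, edgeR adjusted p = 6.19e-04, at week 4 and -1.83, SE 0.40 and adjusted p = 0.0019, at week 2), with at most 1.28 CPM in any root library, against at least 2.31 CPM in any shoot library. Its namesake BdiBd21-3.1G0907000 was higher in roots at week 2 (2.29, SE 0.52, edgeR adjusted p = 0.00264) and was not called at week 4 (0.69, SE 0.48 and adjusted p = 0.233). Of the SCL3 genes, named after an Arabidopsis GRAS protein that acts against DELLA proteins, BdiBd21-3.2G0779700 had a mean of 13.04 ± 1.77 CPM in week 4 roots, against 13.03 ± 1.89 CPM in week 4 shoots (SD, n = 3 each), and was called in no contrast. The other, BdiBd21-3.4G0600700, was lower in roots (-1.26, SE 0.45, edgeR adjusted p = 0.0291, at week 4 and -1.67, SE 0.48 and adjusted p = 0.0106, at week 2). Its week 4 call was lost without replicate 1 or 2 of week 4 roots or replicate 2 or 3 of week 4 shoots (adjusted p 0.0637 to 0.0988).

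A run of 20 GRAS genes lay within 165.9 kb of chromosome 4, from 8396848 to 8562763, among 44 genes in all. Each is named SCL9, SCL14, SCL33 or SCL34, names that 29 genes of the table carry. Of the 20, 14 were tested. At week 4, 6 were called higher and 0 lower in roots by edgeR, and at week 2, 4 higher and 2 lower. The share called was 42.9% at each week, against 60.9% of all tested genes at week 4 and 56.1% at week 2. Level differed greatly along the run. Per kb, the neighbours BdiBd21-3.4G0127300, BdiBd21-3.4G0127400 and BdiBd21-3.4G0127500 had 6.05, 5.64 and 8.96 CPM in week 4 roots, against 1.48, 2.39 and 3.01 CPM in week 4 shoots, while the 11 genes before them reached at most 0.723 CPM per kb in any group mean. Downstream, BdiBd21-3.4G0128500 and BdiBd21-3.4G0129900 were the next highest, with 1.75 and 2.51 CPM per kb in week 4 roots, against 2.20 and 3.34 in week 4 shoots.

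**Figure D3:**
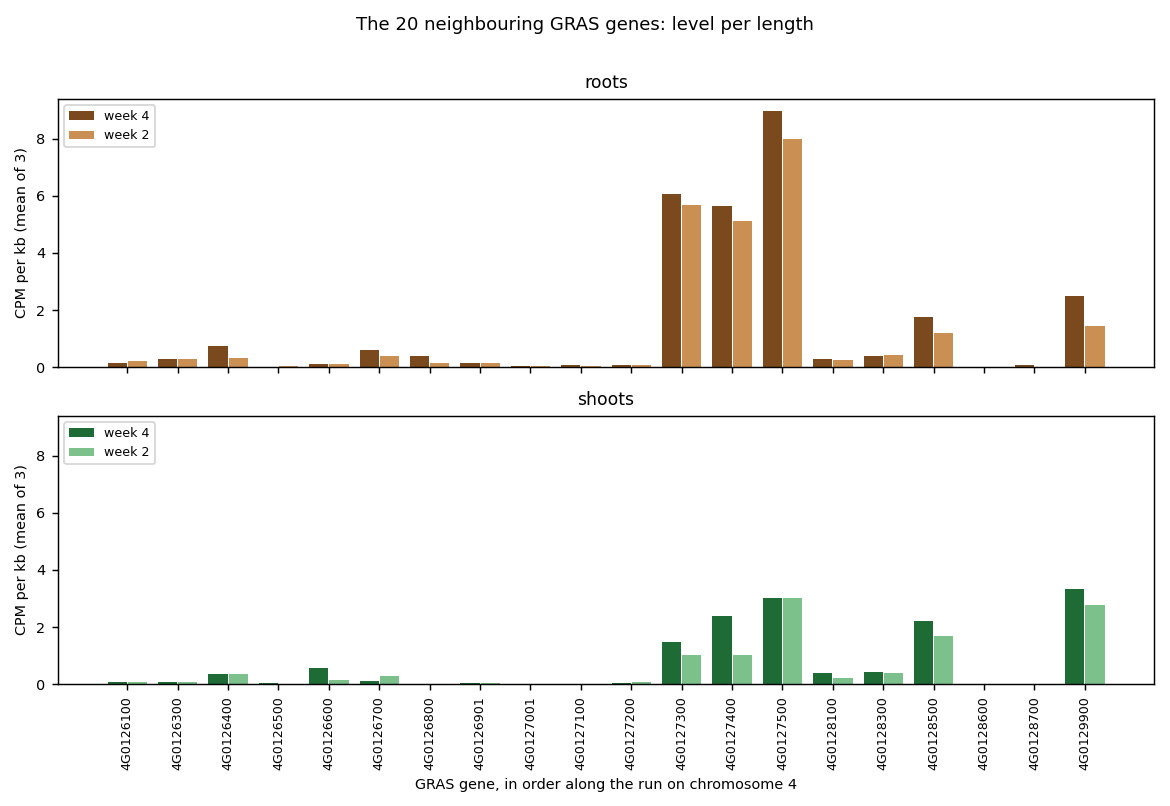
Level per length (y axis, CPM per kb, mean of 3 libraries) of the 20 GRAS genes of the chromosome 4 run in their order along it (x axis), in roots above and shoots below. Dark bars are week 4 and light bars week 2. The 3 neighbouring genes with the tallest root bars reach 5.64 to 8.96 CPM per kb in week 4 roots.

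The 3 neighbours with the highest level per length in roots were called higher in roots at both weeks. Gene BdiBd21-3.4G0127300 (SCL14, chromosome 4, 8436633 to 8438528) had 7.88, 9.84 and 16.7 CPM in week 4 roots, 11.8, 10.3 and 10.3 CPM in week 2 roots, 3.35, 2.56 and 2.49 CPM in week 4 shoots and 2.16, 2.18 and 1.40 CPM in week 2 shoots. Its tissues did not overlap, and its log2 fold change was 2.03 (SE 0.28, edgeR adjusted p = 6.54e-05) at week 4 and 2.49 (SE 0.29 and adjusted p = 1.76e-05) at week 2. For BdiBd21-3.4G0127400 (SCL9, chromosome 4, 8440171 to 8445598) these values were 1.24 (SE 0.31, edgeR adjusted p = 0.00483) and 2.34 (SE 0.33 and adjusted p = 8.81e-05). For BdiBd21-3.4G0127500 (SCL9, chromosome 4, 8445700 to 8449032) they were 1.57 (SE 0.21, edgeR adjusted p = 3.83e-05) and 1.41 (SE 0.20 and adjusted p = 9.90e-05). At the far end of the run BdiBd21-3.4G0129900 (SCL34, chromosome 4, 8559599 to 8562763) was lower in roots at week 2 (-0.94, SE 0.21, edgeR adjusted p = 0.00242). The sources used here give neither the strand setting of the authors' counting nor its treatment of reads shared by such similar genes, so values of single genes in the run are uncertain.

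Outside the run lay 9 genes of the same names. Of these, 6 were tested, and 5 of the 6 were called higher in week 4 than in week 2 shoots, against 1 of the 14 tested in the run, where 14.5% of all tested genes were called higher. The counts were not tested against each other, and many tested genes of the run had few reads. For instance, BdiBd21-3.4G0126600, with 100 counts in all, went from 0.1345 CPM per kb in week 2 shoots to 0.559 in week 4 shoots without a call. The part of depth in these counts was not tested. The most abundant of the 6, BdiBd21-3.4G0051100 (SCL9, chromosome 4, 3080072 to 3084908), had 111, 141 and 123 CPM in week 4 shoots, against 72.1, 70.9 and 79.6 CPM in week 2 shoots. Without overlap, it rose by 0.75 on the log2 scale (SE 0.15, edgeR adjusted p = 0.00332). The rises of BdiBd21-3.2G0668000, BdiBd21-3.1G0047200 and BdiBd21-3.2G0699200 were 0.96, 0.77 and 0.64 (adjusted p = 0.00418, 0.00748 and 0.00468, edgeR). In the run, BdiBd21-3.4G0127400 rose by 1.24 (SE 0.33, edgeR adjusted p = 0.0141), a call lost without replicate 1 or 2 of week 2 shoots or replicate 1 of week 4 shoots (adjusted p 0.0523 to 0.0567).

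Shoots changed with age in 31 of the 78 tested members, 13 higher and 18 lower at week 4, where 33.9% of all tested genes were called (14.5% higher, 19.4% lower). The median log2 fold change was 0.00 over the members and over all tested genes. GRAS genes moved both ways, 11 higher and 9 lower of 49. All members of the other roles that were called, apart from GID1 and a SAUR36 gene, were lower. In the edgeR fit of the 6 shoot libraries alone, the calls of BdiBd21-3.1G0297800, BdiBd21-3.1G0393700, BdiBd21-3.1G0570400, BdiBd21-3.1G0657800, BdiBd21-3.1G1043200, BdiBd21-3.2G0063700 and BdiBd21-3.5G0221800 were not made (adjusted p 0.0514 to 0.102).

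**Figure D4:**
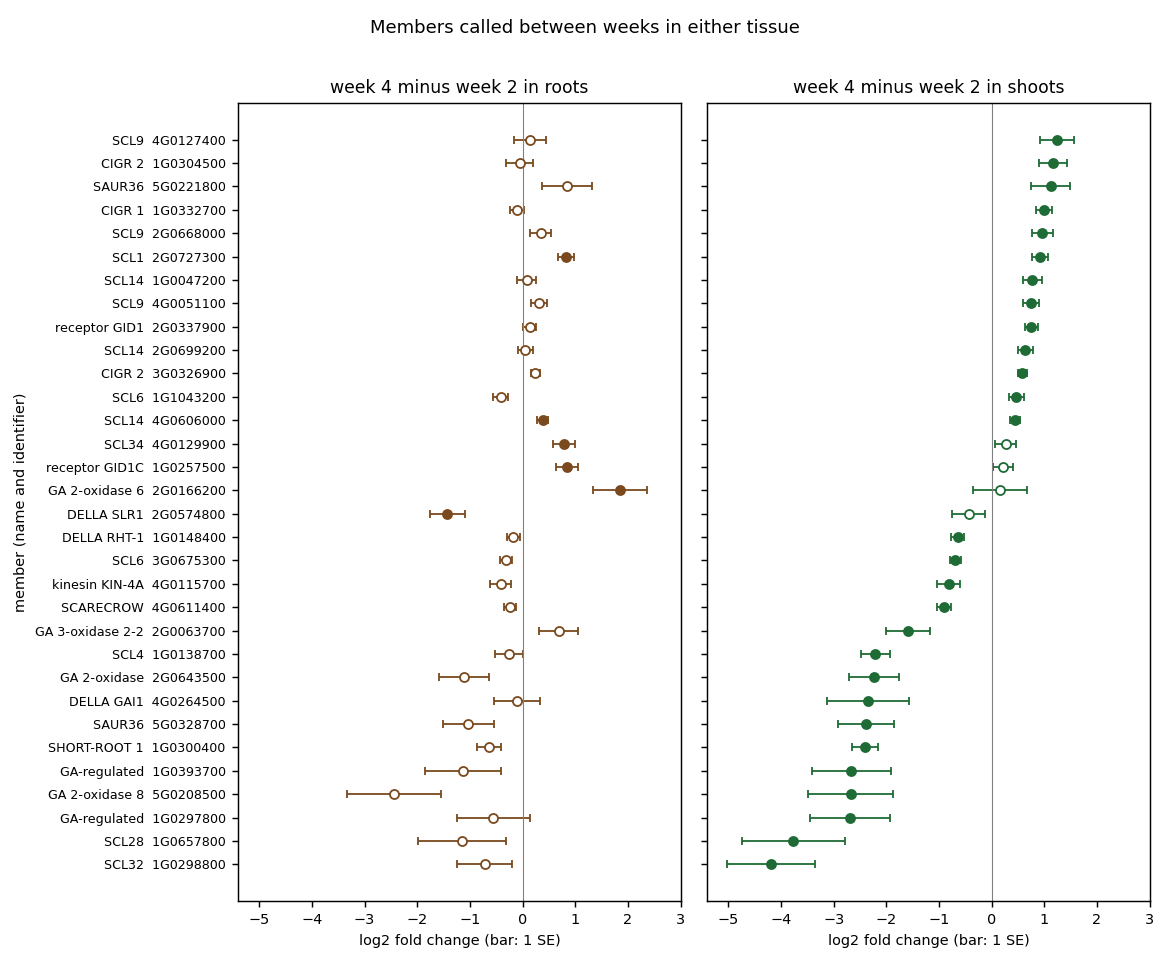
Week 4 minus week 2 log2 fold change (x axis) in roots on the left and in shoots on the right for the 32 members (y axis) called in either tissue and with a fitted value in both, ordered by the shoot change. Bars are 1 SE, and filled points were called. The shoot changes run from -4.19 for SCL32 to 1.24 for an SCL9 gene, and few root points are filled.

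The chitin-inducible gibberellin-responsive genes, named after rice GRAS genes that respond to chitin fragments and gibberellin, rose in shoots. The table holds 3, and the 3 were called higher in week 4 than in week 2 shoots and, at week 4, lower in roots than in shoots. Gene BdiBd21-3.1G0304500 (protein 2, chromosome 1, 19004369 to 19009137) had 78.7, 83.9 and 123 CPM in week 4 roots, 142, 71.3 and 83.7 CPM in week 2 roots, 367, 380.2 and 357 CPM in week 4 shoots and 211, 144 and 138 CPM in week 2 shoots. Week 4 shoots stood above all other libraries, by 1.16 (SE 0.26, edgeR adjusted p = 0.00673) over week 2 shoots on the log2 scale, and roots were below them by a log2 fold change of -1.95 (SE 0.27 and adjusted p = 7.79e-05). At week 2 the tissues overlapped and the difference of -0.73 (SE 0.26, edgeR adjusted p = 0.033) was not called without replicate 2 or 3 of week 2 roots or replicate 1 of week 2 shoots (adjusted p 0.112 to 0.12). Gene BdiBd21-3.3G0326900 (protein 2, chromosome 3, 24050540 to 24056624) rose in shoots by 0.58 (SE 0.09, edgeR adjusted p = 8.33e-04).

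Gene BdiBd21-3.1G0332700 (protein 1, chromosome 1, 20920956 to 20925705) was the member whose tissue order turned between the weeks. It had 37.9, 41.7 and 50.1 CPM in week 4 roots, 51.5, 38.8 and 49.8 CPM in week 2 roots, 58.8, 59.8 and 62.6 CPM in week 4 shoots and 34.2, 31.9 and 25.1 CPM in week 2 shoots. At week 4 roots were lower (-0.48, SE 0.14, edgeR adjusted p = 0.0123), a call lost without replicate 1 of week 4 roots (adjusted p = 0.0537), and at week 2 they were higher (0.62, SE 0.15 and adjusted p = 0.00334). It rose in shoots with age (0.99, SE 0.15, edgeR adjusted p = 7.04e-04) and its root change was -0.11 (SE 0.14 and adjusted p = 0.63). The difference between these was called (-1.10, SE 0.21, edgeR adjusted p = 0.00905), also in each of the 12 fits that left out a library.

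SCL1 (BdiBd21-3.2G0727300, chromosome 2, 54655745 to 54658127) rose with age in both tissues. It had 232, 229 and 178 CPM in week 4 roots, 105, 125 and 131 CPM in week 2 roots, 159.6, 193 and 223 CPM in week 4 shoots and 95.3, 99.7 and 112 CPM in week 2 shoots. In each tissue every week 4 library lay above every week 2 library, and the log2 fold change was 0.82 in roots (SE 0.15, edgeR adjusted p = 0.00373) and 0.91 in shoots (SE 0.15 and adjusted p = 0.00111). An SCL14 gene, BdiBd21-3.4G0606000 (chromosome 4, 47504958 to 47511815), also rose in both, by 0.38 in roots (SE 0.10, edgeR adjusted p = 0.0268) and 0.44 in shoots (SE 0.10 and adjusted p = 0.00707). Its root call was lost in 8 of 12 fits without a library, namely replicate 1 or 2 of either root group, any week 2 shoot library or replicate 3 of week 4 shoots (adjusted p 0.0532 to 0.112), and its shoot call without replicate 2 of either shoot group (adjusted p 0.0556 and 0.0577).

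Among called GRAS genes averaging at least 1 log2 CPM, SCL32 and SCL28 had the largest falls in shoots, and SHORT-ROOT 1, the DELLA-named BdiBd21-3.4G0264500 and SCL4 came next. SCL32 (BdiBd21-3.1G0298800, chromosome 1, 18514341 to 18516940) had 7.71, 8.53 and 7.54 CPM in week 4 roots, 10.4, 14.1 and 14.6 CPM in week 2 roots, 0.372, 0 and 0 CPM in week 4 shoots and 4.17, 2.74 and 0.808 CPM in week 2 shoots. Counts in week 4 shoots came from replicate 1, and the log2 fold change was -4.19 (SE 0.83, edgeR adjusted p = 0.00343), or -8.87 without that library (adjusted p = 9.72e-04), when the group is at 0 and the fitted value is no bound. SCL28 (BdiBd21-3.1G0657800, chromosome 1, 48800560 to 48803715), named after an Arabidopsis regulator of cell division, had 6.05, 7.48 and 14.1 CPM in week 4 roots, 22.7, 19.1 and 19.4 CPM in week 2 roots, 3.53, 0 and 0 CPM in week 4 shoots and 15.1, 18.4 and 17.2 CPM in week 2 shoots. Again replicate 1 held every count of the week 4 shoots, and the log2 fold change was -3.77 (SE 0.98, edgeR adjusted p = 0.0153), or -11.57 without it, with the group at 0 as for SCL32. The week 4 roots, too, lay below the week 2 roots without overlap, but the change of -1.15 was not called (SE 0.83 and adjusted p = 0.363). Without replicate 1 of the week 4 shoots it was -1.19, with an edgeR adjusted p of 0.0116. SCL4 (BdiBd21-3.1G0138700, chromosome 1, 7595052 to 7597210) had 10.9, 8.87 and 8.63 CPM in week 4 roots, 11.5, 11.4 and 11.00 CPM in week 2 roots, 3.81, 1.37 and 2.06 CPM in week 4 shoots and 12.1, 11.6 and 10.2 CPM in week 2 shoots. Its shoot change was -2.21 (SE 0.28, edgeR adjusted p = 4.11e-04), its root change -0.26 (SE 0.26 and adjusted p = 0.515), and the difference of 1.95 was called (SE 0.38 and adjusted p = 0.0115).

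SCL32 and SCL28 were also root genes at week 4. The root minus shoot log2 fold change of SCL32 was 5.81 (SE 0.79, edgeR adjusted p = 7.49e-05) at week 4 and 2.33 (SE 0.56 and adjusted p = 0.00422) at week 2. For SCL28 it was 2.89 (SE 0.97, edgeR adjusted p = 0.0251) at week 4, lost without replicate 3 of week 4 roots or replicate 2 of week 4 shoots (adjusted p 0.0519 and 0.0801) and in the fit of the week 4 libraries alone (adjusted p = 0.0991), and 0.27 (SE 0.82 and adjusted p = 0.802) at week 2. Across all fits the week 4 value of SCL28 ran from 2.28 to 10.61, the top of that range with the week 4 shoots at 0, since replicate 1 held all their counts. The other SCL32 gene, BdiBd21-3.2G0272801, had no count in any shoot library, so roots were at least 9.08-fold higher at week 4 and at least 14.6-fold higher at week 2 (adjusted p = 0.00237 and 0.00115, edgeR). MONOCULM 1 gene BdiBd21-3.1G0489700 had 0.0929, 0 and 0 CPM in week 4 shoots, against 0.151, 0.418 and 0.377 CPM in week 2 shoots (adjusted p = 0.0235, edgeR), lost without replicate 2 or 3 of either shoot group (adjusted p up to 0.0722).

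**Figure D5:**
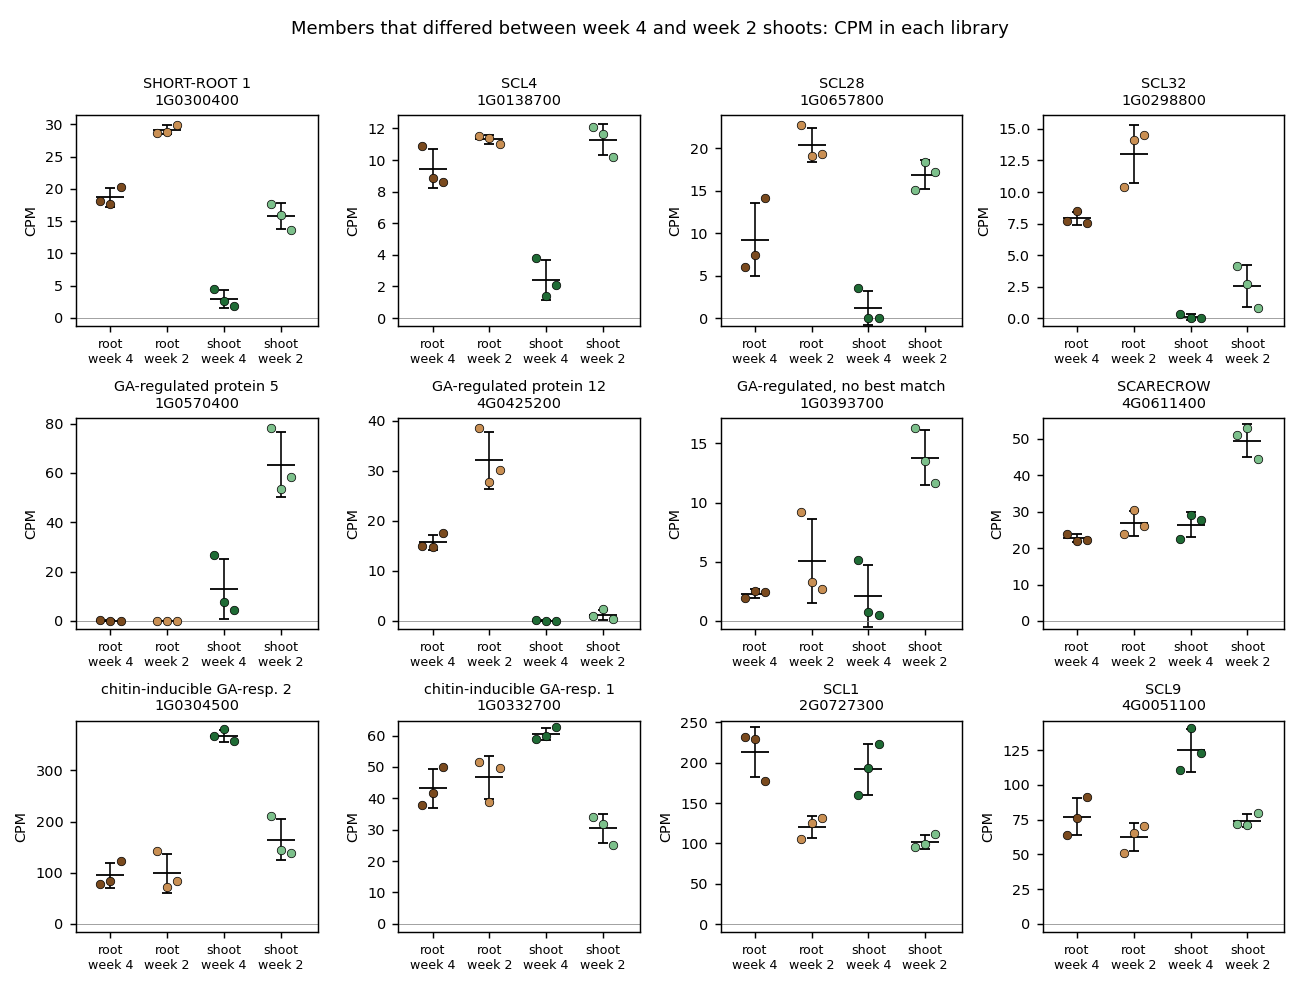
CPM (y axis) of 12 members in each of the 12 libraries, by group (x axis). Points are libraries, in replicate order from left to right, and bars are the mean with 1 SD of 3 libraries. Replicate 1 is the highest week 4 shoot library for SCL28, SCL32 and the 3 gibberellin-regulated genes, and the chitin-inducible genes are highest in week 4 shoots.

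The gibberellin-regulated peptides fell in shoots where they were called. Of 12 in the table, 7 were tested, and 4 were called lower and 0 higher in week 4 than in week 2 shoots, with a median log2 fold change of -2.67 over the 7. Of all tested genes, 19.4% were called lower and 14.5% higher. The count of 4 moved with the libraries and the tool. Without replicate 1 of week 4 shoots, where 8 were tested, 8 were called lower, and limma-voom called 7 of 7, while without replicate 2 of week 4 shoots 2 of 8 were called. In the fit of the 6 shoot libraries alone 0 of 6 were called by edgeR, with 3 at an unadjusted p under 0.05. Over all tested genes, 5664 of 26969 were called lower without replicate 1 of week 4 shoots and 5138 of 26463 by limma-voom. Without replicate 2 of week 4 shoots they were 4425 of 27019, and in the shoot libraries alone 4196 of 24212. Summed over the 12 genes, the level was 40.3, 8.71 and 4.87 CPM in week 4 shoots, against 117, 95.2 and 91.2 CPM in week 2 shoots. Every week 4 sum lay below every week 2 sum, with replicate 1 highest. In roots the sum was 18.5, 18.9 and 22.5 CPM at week 4, against 54.3, 34.2 and 35.8 CPM at week 2. There the number of the 7 called by edgeR was 0, where 18.8% of all tested genes were called. At an unadjusted p under 0.05 it was 1, and DESeq2 and limma-voom called 1 each.

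Gene BdiBd21-3.1G0570400 (gibberellin-regulated protein 5, chromosome 1, 42099361 to 42101636) held most of the summed shoot CPM of the group. It had 0.249, 0.0751 and 0.0421 CPM in week 4 roots, 0.0437, 0 and 0 CPM in week 2 roots, 26.9, 7.68 and 4.40 CPM in week 4 shoots and 78.2, 53.6 and 58.5 CPM in week 2 shoots. Shoots were above roots in every library, by a root minus shoot log2 fold change of -6.69 (SE 0.87, edgeR adjusted p = 7.63e-05) at week 4, and 1 count was found in week 2 roots. The log2 fold change in shoots with age was -2.28 (SE 0.56, edgeR adjusted p = 0.0113) and -3.43 without replicate 1 of the week 4 shoots (adjusted p = 3.71e-05). Gene BdiBd21-3.4G0425200 (gibberellin-regulated protein 12, chromosome 4, 36116466 to 36118007) was the root gene of the group, with 15.1, 14.7 and 17.5 CPM in week 4 roots, 38.5, 27.7 and 30.1 CPM in week 2 roots, 0.139, 0 and 0 CPM in week 4 shoots and 0.905, 2.42 and 0.431 CPM in week 2 shoots. Its root to shoot ratio at week 4 was 303 (95% counting interval 104 to 1473; adjusted p = 2.97e-06, edgeR), from 3 counts in week 4 shoots, and the log2 fold change at week 2 was 4.65 (SE 0.49 and adjusted p = 1.04e-05). It fell in shoots with age, where week 2 over week 4 gave a ratio of 25.1 (95% counting interval 8.29 to 124; adjusted p = 0.00358, edgeR).

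The remaining called peptides had no named best match. Gene BdiBd21-3.1G0393700 (chromosome 1, 25384582 to 25385826) had 5.16, 0.740 and 0.477 CPM in week 4 shoots, against 16.3, 13.5 and 11.6 CPM in week 2 shoots. This was a log2 fold change of -2.67 (SE 0.75, edgeR adjusted p = 0.0198), lost without replicate 2 of the week 4 shoots (adjusted p = 0.06) and -4.53 without replicate 1 (adjusted p = 2.08e-04). Gene BdiBd21-3.1G0297800 (chromosome 1, 18466314 to 18467018) changed by -2.69 (SE 0.76, edgeR adjusted p = 0.0187), lost without replicate 2 of either shoot group (adjusted p 0.0621 and 0.0626), and by -4.59 without replicate 1 of the week 4 shoots. Gene BdiBd21-3.5G0161000 (chromosome 5, 16477121 to 16477922) had 0.456, 0.564 and 0.716 CPM in week 4 roots, 3.23, 1.23 and 1.62 CPM in week 2 roots, 5.39, 0 and 0 CPM in week 4 shoots and 14.8, 17.3 and 17.03 CPM in week 2 shoots. Replicate 1 held all its counts in week 4 shoots, and its shoot change of -3.14 was not called (SE 1.12, edgeR adjusted p = 0.0548), but was called without that replicate (adjusted p = 5.77e-06). It was lower in roots at week 2 (-3.01, SE 1.11, edgeR adjusted p = 0.0407), a call lost without any single library of either root group or of the week 2 shoots (adjusted p 0.0578 to 0.122). The Snakin-1 neighbours BdiBd21-3.1G0108800 and BdiBd21-3.1G0108900 had at most 1.58 CPM in any library, and reads they share are counted in a way the sources used here do not give.

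Replicate 1 of the week 4 shoots lay towards the week 2 shoots for most members that fell. Of the 18 members called lower in week 4 shoots, 14 had their highest week 4 value in replicate 1 (77.8%), against 72.4% of the 5139 genes of the whole table called lower. Among the 13 called higher, replicate 1 was the lowest week 4 value in 5 (38.5%), against 49.4% of the 3827 genes called higher. Without this library, 26 of the 31 calls remained, 5 were lost and 3 further tested members were called. In roots 5 further members were then called lower with age by edgeR. These were SHORT-ROOT 1 (adjusted p = 0.0064), SCL28 (0.0116), BdiBd21-3.1G1043200 (0.0456), BdiBd21-3.3G0675300 (0.0256) and BdiBd21-3.5G0161000 (0.00711). Over all tested genes, 2761 were called lower in roots without this library, against 1680 with all libraries. The part of this library in some other single results is given beside them.

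Roots changed with age in 6 of the 78 tested members, 5 higher and 1 lower, where 18.8% of all tested genes were called (12.4% higher, 6.35% lower). These were SCL1, SCL14 gene BdiBd21-3.4G0606000, GID1C, the 2-oxidase BdiBd21-3.2G0166200 and BdiBd21-3.4G0129900 of the chromosome 4 run, all higher, and BdiBd21-3.2G0574800, lower. With RLE scaling 5 members were higher and 3 lower, and with upper-quartile scaling 5 higher and 4 lower. Over all tested genes, 3282 were higher and 1680 lower with TMM scaling. They were 3011 and 1879 with RLE and 2854 and 2062 with upper-quartile scaling. Gene BdiBd21-3.4G0129900 had 6.59, 5.49 and 5.14 CPM in week 4 roots, against 2.62, 3.72 and 3.60 CPM in week 2 roots, without overlap (log2 fold change 0.79, SE 0.21, edgeR adjusted p = 0.0226), and its call ended without replicate 1 of week 2 roots or replicate 1 or 2 of week 4 roots (adjusted p 0.0557 to 0.0946). Of the 6, SCL1 alone stayed called in every fit that left out a library. The count of 6 was 1 without replicate 1 and 3 without replicate 2 of week 4 roots. It was 2 without replicate 1 and 3 without replicate 2 of week 2 roots, 10 without replicate 3 of week 4 roots and 11 without replicate 1 of week 4 shoots. In the same order of fits, the count over all tested genes, 4962 with all libraries, was 2533, 2778, 2782, 3240, 5201 and 5743. The root and the shoot age change differed, by the test of the difference itself, in 7 members, 4 with a positive and 3 with a negative value, where 8.52% of all tested genes were called (6.56% positive, 1.95% negative). Without replicate 1 of week 4 shoots it was 15 members, 12 positive and 3 negative, and DESeq2 called 13, 9 positive and 4 negative. The count over all tested genes rose as well, from 2254 of 26463 (1737 positive, 517 negative). It was 3542 of 26969 without that library (2902 positive, 640 negative) and 3806 of 25676 with DESeq2 (2699 positive, 1107 negative).

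The last 4 members are 3 SAUR36 genes and a kinesin. Gene BdiBd21-3.5G0221800 (SAUR36, a member of the small auxin-up RNA family, chromosome 5, 20529317 to 20530555) had 1.70, 1.13 and 2.23 CPM in week 4 roots, 1.35, 1.03 and 0.355 CPM in week 2 roots, 64.7, 44.9 and 32.1 CPM in week 4 shoots and 30.6, 17.8 and 16.9 CPM in week 2 shoots. It was a shoot gene, with a log2 fold change of -4.81 (SE 0.44, edgeR adjusted p = 3.89e-06) at week 4 and -4.54 (SE 0.46 and adjusted p = 8.55e-06) at week 2. Its shoot rise of 1.12 (SE 0.37, edgeR adjusted p = 0.0373) was lost in 6 of 12 fits without a library, those without replicate 2 of week 2 roots, replicate 1 of week 4 roots, replicate 2 or 3 of week 2 shoots or replicate 1 or 2 of week 4 shoots (adjusted p 0.0532 to 0.143). A SAUR36 gene of the same chromosome, BdiBd21-3.5G0328700 (chromosome 5, 26788852 to 26789445), fell in shoots, with 2.51, 1.65 and 0.318 CPM at week 4, against 7.59, 10.8 and 5.12 CPM at week 2 (log2 fold change -2.38, SE 0.53, edgeR adjusted p = 0.00588). The third SAUR36 gene, BdiBd21-3.3G0663400, was called in no contrast.

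The kinesin KIN-4A gene (BdiBd21-3.4G0115700, chromosome 4, 7429398 to 7439955), whose rice counterpart is tied to cell wall order and gibberellin level, had 138, 183 and 254 CPM in week 4 roots, 278, 259.7 and 233 CPM in week 2 roots, 97.5, 85.9 and 66.4 CPM in week 4 shoots and 163, 152 and 126 CPM in week 2 shoots. Roots were 2.30-fold above shoots at week 4 (adjusted p = 3.59e-04, edgeR) and 1.75-fold above them at week 2 (adjusted p = 0.00556). It fell in shoots with age, with a log2 fold change of -0.82 (SE 0.21, edgeR adjusted p = 0.0107), and was not called in roots (-0.42, SE 0.20 and adjusted p = 0.173). Roots and shoots at week 4 did not overlap, nor did week 4 and week 2 shoots.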

How the data were processed

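Messenger RNA of 12 libraries was sequenced, 3 for each of 4 groups. For 39068 genes the deposited table gives unscaled counts of reads, with positions, lengths and descriptions. HISAT2 2.0.5, featureCounts 1.5.0-p3 and HTSeq 0.6.1 are named, without their roles, per the submitters' processing notes. Strand setting, handling of reads matching several genes, and genome build (the identifiers show only an annotation version) could not be taken from these sources. Columns were matched to samples by tissue, week and replicate in the titles, since all 3 week 4 shoot titles carry the same short code. No sequences were used.

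The counts were fitted in R 4.3.3 with edgeR 4.0.16, using filterByExpr by group (minimum count 10, minimum total 15), TMM scaling, robust quasi-likelihood tests and Benjamini-Hochberg adjustment over the 26463 tested genes. The procedure was tested on simulated data in which all groups shared the same gene means and 200 genes were changed in week 4 roots. That setting holds neither broad differences between tissues nor a library that stands apart, so it does not cover those. Each SE is the size of the log2 fold change over the root of its F statistic, and can be too small against groups of low count. Against a group with no count a fold is a lower bound that takes a floor of 3 counts over the group, and against 1 to 3 counts it is a ratio with a 95% exact binomial interval. Both cover counting error only. Replicates were different plants, per the labels' protocols.

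Named were all oxidase, receptor and DELLA-named members. Of the others, each contrast gave the 4 highest and 4 lowest fold changes among called members averaging at least 1 log2 CPM, and the GRAS and peptide groups their 5 most abundant members. GID2, SCL8, the kinesin, the SCL3 and NSP2 genes, the low-count SCARECROW, SCL32, MONOCULM 1 and snakin genes, the SAUR36 genes on chromosome 3 and at the end of chromosome 5, 1G0694800, 3G0675300, 3G0326900, 4G0127500, 4G0128500, 1G0047200, 2G0668000 and the pathway genes were chosen after their values were seen. The pathway list came from keywords, less 17 unrelated matches. Members and lists were chosen with earlier results of these data known. Alternatives were RLE and upper-quartile scaling, no low-count filter, DESeq2 1.42.0, limma-voom (limma 3.58.1), the compared libraries alone, a replicate block, a test against a fold change of 2, and leaving out each library.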

Additional observations from a re-analysis of the deposited data

Results flagged for a closer look

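In 7 members the age change in roots differed from that in shoots by the interaction test of the edgeR model. Values are the root change minus the shoot change on the log2 scale, beside a median of 0.107 over all tested genes. For the 3-oxidase BdiBd21-3.2G0063700 the difference was 2.28 (adjusted p = 0.0293, edgeR), for SCL4 BdiBd21-3.1G0138700 1.95 (adjusted p = 0.0115), for SHORT-ROOT 1 BdiBd21-3.1G0300400 1.76 (adjusted p = 0.0102) and for SCARECROW BdiBd21-3.4G0611400 0.66 (adjusted p = 0.0402). These 4 fell in shoots and were not called in roots in the fit of all libraries. For the chitin-inducible gene BdiBd21-3.1G0332700 it was -1.10 (adjusted p = 0.00905, edgeR), for SCL6 BdiBd21-3.1G1043200 -0.89 (adjusted p = 0.0196) and for the receptor GID1 BdiBd21-3.2G0337900 -0.62 (adjusted p = 0.0484). These 3 rose in shoots and were not called in roots in the fit of all libraries. Without replicate 1 of week 4 shoots 15 members were called, 12 with a positive and 3 with a negative value. Of all tested genes, 3542 of 26969 were then called, 2902 positive and 640 negative, against 2254 of 26463 with all libraries. In every fit without a single library, SHORT-ROOT 1, SCL4 and BdiBd21-3.1G0332700 stayed called.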

How the results depend on the processing

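Counts of called members kept within 1.5 times their value under most alternatives, except with age in roots, where many alternatives left that range. In the test against a fold change of 2 they were 27 at week 4 and 22 at week 2 between tissues and 4 with age in shoots. With age in roots and for the difference between age changes that test called 0, with 3 and 6 members at an unadjusted p under 0.05. With age in roots, where edgeR called 6, DESeq2 called 13, limma-voom 11 and the fit of the compared libraries alone 15. Over all tested genes these counts were 4962, 6341, 6413 and 5609. For the difference of age changes, where edgeR called 7, DESeq2 called 13 and limma-voom 9. Over all tested genes these counts were 2254, 3806 and 2814. The causes were not tested.

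Leaving out 1 library at a time gave 42 to 51 members between tissues at week 4, 36 to 47 at week 2, 25 to 32 with age in shoots, 1 to 11 with age in roots and 4 to 15 for the difference. The last count was 15 without replicate 1 of the week 4 shoots, and 4 without replicate 1 of week 2 roots or replicate 2 of week 4 roots. The counts over all tested genes ran from 2533 to 5743 with age in roots and from 1318 to 3542 for the difference. Over 360 pairs of a named gene and a contrast and 7094 comparisons with an alternative, 6698 kept direction and call, 257 lost a call, 138 gained one and 1 turned. Gene BdiBd21-3.5G0161000 had a root minus shoot log2 fold change of -1.67 at week 4 (adjusted p = 0.271, edgeR), and from -2.28 to 6.63 without single libraries, the last without replicate 1 of the week 4 shoots.

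Replicate numbers recur in all groups, and the labels do not say whether a number marks shared plants. Same-numbered root and shoot libraries had correlated deviations of 0.179, 0.0697 and 0.111 at week 2 and of -0.115, 0.0447 and -0.106 at week 4. For libraries of different numbers these were -0.142 to 0.08 at week 2 and -0.096 to 0.174 at week 4. The numbers were not used as pairs, and whether the week 2 libraries of a number shared plants was not tested. With a replicate block, 48 and 44 members were called between tissues at week 4 and week 2, 30 and 6 with age in shoots and roots, and 5 for the difference. Among named genes the block ended the calls of the difference of age changes for BdiBd21-3.2G0063700 (adjusted p = 0.0532, edgeR) and GID1 (0.0555), of the shoot age change for BdiBd21-3.4G0264500 (0.0598) and BdiBd21-3.5G0208500 (0.0582), and of the week 2 tissue difference for BdiBd21-3.2G0288200 (0.0867). Genes of few counts set the limit of depth, since 26 members could not be tested.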
